A study of Mus musculus with 59 samples.

Results

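The 9 sialyltransferase genes (St6gal1, St6gal2, St8sia1, St8sia2, St8sia3, St8sia4, St8sia5, St3gal5 and St6galnac6) and Ncam1, the main carrier of polysialic acid in the brain, are described in mouse brain after prenatal valproic acid (VPA). They were taken by gene symbol, as all probe sets annotated with exactly 1 of these symbols, and make up 10 of the 18194 genes named on the array, with 23 of its 45101 probe sets. The set was selected on their levels in VPA, VPM and MC telencephalon at E14.5 (E, embryonic day), so those levels are given as a description, with the SE of each difference but no test of these genes. Tests are given at the other ages and between ages, and those that use E14.5 MC arrays are not independent of the selection. C57BL/6 dams were dosed by mouth daily from E12.5 over E13.5 to E14.5 with 300 mg/kg VPA, 300 mg/kg valpromide (VPM, the amide of VPA) or the vehicle, 0.5% methylcellulose (MC). The first set is telencephalon at E14.5, dissected 3 h after dosing, with VPA, VPM and MC groups (3 arrays each). Hippocampus and forebrain were taken at E18.5 from VPA, VPM and MC groups (3 arrays each). Hippocampus and cortex of male offspring aged 12 to 13 weeks formed groups of VPA with a running wheel in the cage after weaning (VPA+RW), VPA, MC with a wheel (MC+RW) and MC, with 3 arrays each. A further set of male hippocampus at postnatal day (P) 84 held 4 VPA and 4 MC arrays. No group carried a transgene or a mutation, all dams were dosed with a drug or the vehicle, and the labels call replicates biological without naming dams or litters, so p-values measure the spread between these samples, which may share a litter.

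Sialyltransferases move sialic acid from its activated nucleotide form onto the ends of sugar chains on glycoproteins and glycolipids in the Golgi. St8sia2 and St8sia4 build long chains of sialic acid, polysialic acid, on the neural cell adhesion molecule Ncam1, which weakens adhesion between cells and accompanies migration and neurite growth in the embryonic brain. St3gal5 makes the ganglioside GM3 and St8sia1 converts it to GD3, the start of the more highly sialylated gangliosides that St8sia5 and St6galnac6 extend, while St6gal1 and St6gal2 cap the galactose ends of glycoprotein chains.

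The promoters of 3 genes are shown because the results turn on them. St6gal2 had the largest difference between VPA and MC of the 10 genes at E14.5. St8sia2 and St8sia4, the polysialic acid polymerases, were both lower in adult than in E18.5 MC tissue. Each window is the 250 bases before the transcription start in the RefSeq table (build GRCm38.p6), written 5′ to 3′ on the gene's strand. Capitals mark GC boxes (GGGCGG on either strand) and CCAAT boxes (CCAAT on either strand), which share no letters here. Of the 10 genes 7 had a promoter in the table.
St6gal2, chr17:55445132-55445381, plus strand: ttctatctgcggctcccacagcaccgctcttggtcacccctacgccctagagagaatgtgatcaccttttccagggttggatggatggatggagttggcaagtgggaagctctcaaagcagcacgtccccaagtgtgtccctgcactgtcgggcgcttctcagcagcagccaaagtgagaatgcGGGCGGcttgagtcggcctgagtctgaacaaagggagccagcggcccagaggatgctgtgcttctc
St8sia2, chr7:74013683-74013932, minus strand: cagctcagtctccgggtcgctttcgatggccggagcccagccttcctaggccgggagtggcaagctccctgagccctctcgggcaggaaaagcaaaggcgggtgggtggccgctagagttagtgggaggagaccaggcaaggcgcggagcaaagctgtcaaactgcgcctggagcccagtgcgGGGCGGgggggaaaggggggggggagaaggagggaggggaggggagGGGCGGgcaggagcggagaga
St8sia4, chr1:95667595-95667844, minus strand: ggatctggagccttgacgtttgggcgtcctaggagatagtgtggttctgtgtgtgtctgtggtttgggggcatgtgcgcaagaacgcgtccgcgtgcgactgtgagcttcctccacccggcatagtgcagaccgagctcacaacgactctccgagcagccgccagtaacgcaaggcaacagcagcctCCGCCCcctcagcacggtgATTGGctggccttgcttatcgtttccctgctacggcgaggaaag
The windows held 1 GC box (St6gal2), 2 GC boxes (St8sia2), and 1 GC box with 1 CCAAT box (St8sia4). A GC box was present in 32.7% and a CCAAT box in 33.9% of all 32851 promoter windows of this length. CG dinucleotides numbered 10 for St6gal2, 15 for St8sia2 and 19 for St8sia4, beside a median of 6 over all windows.

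Expression was read on Affymetrix mouse expression arrays as a signal intensity per probe set. Each of the 59 arrays was scaled to a trimmed mean of 500, because the deposited trimmed means ran from 197.6 to 419.4, and levels below are in these scaled units with the SD. Between 18.2% and 38.0% of probe sets lay under a floor of 32 on an array, and none of the 10 probe sets used for the tests did on any array. All 10 genes passed the filter on low signal at every age. Arrays of a group correlated at 0.972 to 0.994. Of the 27 embryonic arrays 12 had high Xist, so both sexes are mixed in every embryonic group except E18.5 hippocampus MC, where no array had high Xist. The 3 telencephalon markers on the array were above the floor in every group, and the 5 hippocampus markers summed to 4839 to 7285 in E18.5 hippocampus against 2524 to 3105 in E18.5 forebrain, and in MC adults to 9677 to 10095 in hippocampus against 4284 to 5174 in cortex. Levels of different genes are not compared, since each probe set has its own brightness. In whole tissue, fewer cells of a type and less RNA per cell cannot be told apart.

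At E14.5, 5 of the 10 genes were lower in VPA telencephalon than in MC telencephalon and 3 were higher, while Ncam1 and its polymerase St8sia4 were close to MC. For these 8 genes the VPA and MC arrays did not overlap, as for 60.2% of all 11074 genes tested, of which 53.8% passed an adjusted p of 0.05 in limma (27.1% higher and 26.8% lower). Since the values of this contrast chose the genes, nothing is read from the count, here or in the other E14.5 contrasts. Differences below are log2 VPA minus MC with their SE.

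Of the capping enzymes, St6gal2 had 285.2, 173.4 and 188.3 units in the VPA arrays, against 870.7, 723.0 and 836.2 in the MC arrays. The VPA arrays all lay below the MC arrays (-1.94 ± 0.16), and E14.5 VPA was the lowest of all 19 groups for this gene. St6gal1 had 1313, 1332 and 1394 units in VPA, against 2650, 2776 and 2613 in MC. Its 3 VPA arrays again lay below all MC arrays, at a difference of -0.99 ± 0.05, and its second probe set differed by -1.08 ± 0.09.

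On the probe sets used in the tests, the 2 polysialic acid polymerases parted at this age. St8sia2, the one that prevails in the embryo, had 3872, 3972 and 4049 units in VPA, against 5655, 5156 and 5527 in MC. Every VPA array was below every MC array (-0.46 ± 0.05), and the second probe set of St8sia2 differed by the same amount (-0.46 ± 0.07). St8sia4, the one that persists into adult life, had 2868, 2576 and 2863 units in VPA, against 2763, 2632 and 2946 in MC. Its groups overlapped (-0.01 ± 0.07), and the difference of its dimmer second probe set is not given here. Their acceptor Ncam1 averaged 6203 ± 106 units in VPA and 5976 ± 241 in MC (SD, n = 3 each), with overlapping arrays and a difference of 0.05 ± 0.05. The other 3 probe sets of Ncam1 tested at this age differed by -0.01, 0.03 and 0.15.

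Among the ganglioside enzymes some were lower and some higher. St8sia1 (GD3 synthase) averaged 1009 ± 54.5 units in VPA and 1663 ± 97.9 in MC (-0.72 ± 0.07). St3gal5 (GM3 synthase), which acts one step before it, averaged 1292 ± 58.0 in VPA and 850.1 ± 104 in MC (0.61 ± 0.10). For both enzymes the groups did not overlap, and the second probe set of St3gal5 differed by 0.40 ± 0.11. St6galnac6 had 511.4, 698.3 and 600.4 units in VPA, against 241.7, 321.2 and 277.4 in MC. The difference was 1.11 ± 0.14, and the VPA arrays lay above all MC arrays. St8sia5 averaged 203.9 ± 18.6 in VPA and 151.4 ± 2.13 in MC (0.42 ± 0.13). St8sia3, a further St8sia enzyme of the brain, had 269.2, 239.0 and 281.7 units in VPA, against 786.0, 1103 and 879.8 in MC. Its difference was -1.80 ± 0.14, with VPA arrays far below MC arrays, and its second probe set, read against its own MC level, differed by -1.29 ± 0.10.

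**Figure D1:**
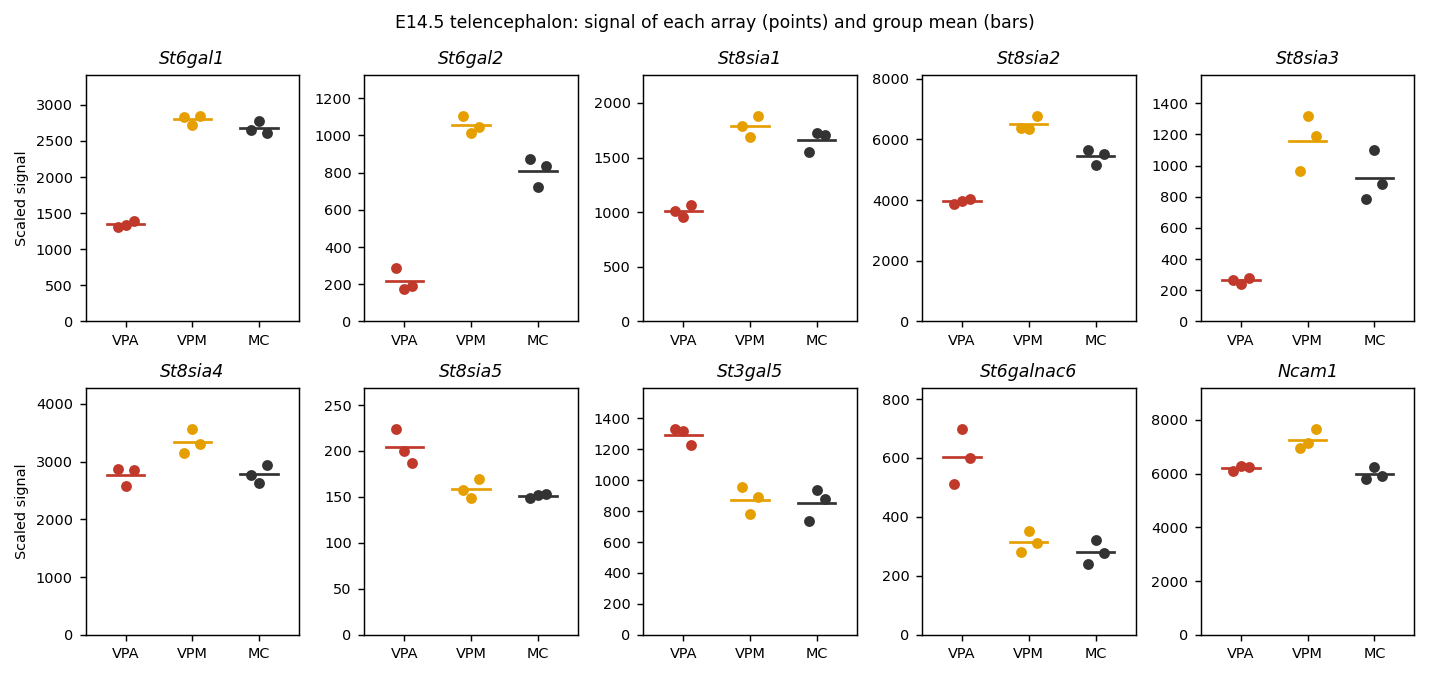
Scaled signal (vertical axis, linear from 0) of each array in E14.5 telencephalon for the 10 genes, with VPA, VPM and MC from left to right. Points are arrays (n = 3 per group) and bars are group means. The VPA points of St6gal2 (173.4 to 285.2) and St8sia3 (239.0 to 281.7) lie below all VPM and MC points, and those of St6galnac6 (511.4 to 698.3) above them.

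VPM was given at the same dose and time, and differs from VPA by an amide in place of the carboxylic acid. In VPM telencephalon St6gal2 had 1106, 1011 and 1045 units, above all 3 MC arrays (log2 VPM minus MC 0.38 ± 0.16), and St8sia3 had 967.4, 1321 and 1193 units, overlapping MC (0.33 ± 0.14). St6gal1, St8sia1, St8sia5, St3gal5 and St6galnac6 overlapped MC, with differences between 0.04 and 0.17. Ncam1, the acceptor of polysialic acid, averaged 7254 ± 360 units in VPM and 5976 ± 241 in MC (0.28 ± 0.05). St8sia2 averaged 6500 ± 244 in VPM and 5446 ± 259 in MC (0.26 ± 0.05), and St8sia4 averaged 3343 ± 208 in VPM and 2780 ± 158 in MC (0.27 ± 0.07). With St6gal2 these were the 4 genes whose VPM and MC arrays did not overlap, beside 32.6% of all genes, of which 11.4% passed (5.64% higher and 5.79% lower). Without VPM replicate 3 the differences were 0.24 for Ncam1, 0.22 for St8sia2 and 0.27 for St8sia4. That array had a summed signal of choroid plexus markers of 20192, against at most 405.3 in VPA arrays and 316.2 in MC arrays; the part of these markers in the differences was not tested.

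Between VPA and VPM the arrays of none of the 10 genes overlapped, beside 60.7% of all genes without overlap, and 54.5% of all genes passed. The log2 VPA minus VPM differences included -2.32 ± 0.16 for St6gal2, -2.13 ± 0.14 for St8sia3, -1.06 ± 0.05 for St6gal1 and 0.93 ± 0.14 for St6galnac6. St8sia4 and Ncam1, close to MC in VPA, were lower in VPA than in VPM by small amounts (-0.27 ± 0.07 and -0.22 ± 0.05), and St8sia5 differed by 0.36 ± 0.13. Both comparisons with VPA use the same VPA arrays, so they are not independent.

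Cell-type markers differed between the same arrays: the sums of 9 of 15 marker lists did not overlap between VPA and MC, and those of 8 of 15 did not overlap between VPM and MC. The summed signal of 6 intermediate progenitor markers was 13782 to 13970 in VPA, 15959 to 17375 in VPM and 20489 to 23476 in MC, with 5 of the 6 lower in VPA than in MC and 4 of the 6 lower in VPM than in MC. The 7 newborn neuron markers summed to 73954 to 77833 in VPA, 86072 to 92148 in VPM and 81152 to 90462 in MC, with 5 of 7 lower in VPA than in MC. Mature neuron markers summed to 13253 to 14050 in VPA, 13205 to 14945 in VPM and 10765 to 12216 in MC. Radial glia markers summed to 41964 to 43602 in VPA, 41882 to 44849 in VPM and 48084 to 50902 in MC, and astrocyte markers to 5241 to 6233 in VPA, 6419 to 6943 in VPM and 7514 to 8649 in MC. Endothelial markers summed to 1666 to 1818 in VPA, 2440 to 2863 in VPM and 2265 to 2477 in MC, and oligodendrocyte markers to 1548 to 1836 in VPA, 1555 to 2198 in VPM and 1034 to 1397 in MC, with Mog under the floor in each group. Red cell markers summed to 6423 to 9872 in VPA, 2340 to 3042 in VPM and 10831 to 12554 in MC. All 3 telencephalon markers on the array were lower in VPA (median -0.47) and in VPM (median -0.42) than in MC. The part of these markers in the differences of the sialyltransferase genes was not tested.

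Other genes of the pathway were followed as a list of 29 genes, 28 of them on the array, which covers making and activating sialic acid, sialidases, further sialyltransferases, the ganglioside backbone, other carriers of polysialic acid, and Mag, a receptor for sialylated gangliosides. In E14.5 VPA telencephalon 7 of the 21 tested were higher than in MC, 4 were lower and 10 did not pass. Of all genes 53.8% passed there (27.1% higher and 26.8% lower). The median of the 21 was 0.12, beside -0.0030 for all genes. Those with the smallest adjusted p were St6galnac4 (1.02 ± 0.11), the lysosomal sialidase Neu1 (0.83 ± 0.11), the lactosylceramide synthase B4galt6 (0.49 ± 0.07) and Nanp, a phosphatase in sialic acid synthesis (0.58 ± 0.08). In VPM telencephalon 4 of 21 were higher and 1 was lower than in MC, where 11.4% of all genes passed. The first 4 were St6galnac5 (0.76 ± 0.15), B4galt6 (0.30 ± 0.07), St3gal2 (0.29 ± 0.07) and Nanp (-0.29 ± 0.08). Nanp thus differed from MC in opposite directions under the 2 compounds.

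At E18.5 limma passed none of the 10 genes between VPA and MC, in hippocampus (0% of 11542 genes passed) or in forebrain (2.11% of 11515 genes passed, 1.08% higher and 1.03% lower). Whether the VPA difference itself changed between E14.5 and E18.5 was not tested. At an unadjusted p under 0.05, 3 of the 10 genes passed in hippocampus and 1 in forebrain, beside 1504 and 1845 of all genes. St6gal2 had 2866, 2723 and 2672 units in VPA forebrain, against 2683, 2741 and 2929 in MC forebrain. The arrays overlapped, and the difference of -0.02 had a 95% interval of -0.15 to 0.12. In hippocampus St6gal2 had 1939, 2272 and 2388 units in VPA, against 1333, 1962 and 1769 in MC. The arrays overlapped here too (0.40 ± 0.16, adjusted p = 0.339, limma over all genes). In these arrays the sums of 7 of 15 marker lists did not overlap: VPA was higher for mature neurons (24959 to 28274, against 19754 to 24572 in MC) and oligodendrocytes (6614 to 7064, against 4375 to 5846). VPA was lower for intermediate progenitors (5764 to 7271, against 7493 to 8368 in MC), radial glia (35054 to 36637, against 38853 to 41986), newborn neurons, red cells and telencephalon. Choroid plexus sums overlapped (22232 to 26439 in VPA and 1643 to 28890 in MC), and 2 VPA arrays but no MC array had high Xist. The part of these in the differences of the 10 genes was not tested. The VPA effect on St6gal2 differed between hippocampus and forebrain by 0.41 ± 0.18 (95% interval 0.04 to 0.78), which did not pass over all genes, where 0.103% passed.

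St8sia3, the other gene far below MC at E14.5, averaged 1246 ± 46.3 units in VPA forebrain and 1159 ± 48.3 in MC forebrain (0.10, interval -0.01 to 0.22), and 1180 ± 64.2 in VPA hippocampus and 1302 ± 69.6 in MC hippocampus (-0.14, interval -0.28 to 0.00). St6gal1 averaged 1797 ± 177 in VPA forebrain and 2037 ± 267 in MC forebrain (-0.18, interval -0.40 to 0.05). St8sia2 averaged 6399 ± 478 in VPA hippocampus and 5797 ± 51.3 in MC hippocampus (0.14, interval 0.01 to 0.27, adjusted p = 0.347, limma). In hippocampus VPA and MC arrays did not overlap for St8sia2, St8sia3 and St8sia5, 3 of the 10 genes, beside 17.7% of all genes. St8sia4, St3gal5 and Ncam1 differed from MC by at most 0.11 in either tissue.

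St6galnac6 was the only one of the 10 genes to pass between VPA and VPM at E18.5, and did so in forebrain, where 0.530% of genes passed. It had 806.0, 743.0 and 709.3 units in VPA forebrain, against 511.1, 515.6 and 577.2 in VPM forebrain and 652.4, 528.7 and 618.2 in MC forebrain. The VPA arrays lay above all VPM and MC arrays, and with St6gal1 it was 1 of 2 genes without overlap between VPA and VPM (17.1% of all genes); it stood at 1.41-fold the VPM level (log2 0.49 ± 0.09, adjusted p = 0.0433, limma). Against MC the difference was 0.33 ± 0.09 (adjusted p = 0.0911, limma), and 22.2% of all genes were without overlap there. The VPA against VPM call was lost without any 1 of the 6 arrays (0.44 without VPA replicate 1, 0.50 without VPA replicate 2, 0.54 without VPA replicate 3, 0.46 without VPM replicate 1, 0.47 without VPM replicate 2, 0.55 without VPM replicate 3), and in a fit of these groups alone (adjusted p = 0.0632, limma). Choroid plexus markers summed to 489.4 to 4815 in VPA forebrain, 20072 to 23771 in VPM forebrain and 17675 to 25184 in MC forebrain, and oligodendrocyte markers to 7134 to 7540 in VPA, 5967 to 6446 in VPM and 5455 to 5805 in MC. Intermediate progenitor markers summed to 4813 to 4996 in VPA, 6190 to 6224 in VPM and 6257 to 6881 in MC forebrain. Mature neuron markers summed to 25261 to 26647 in VPA, 23154 to 24186 in VPM and 22726 to 24121 in MC forebrain. Diencephalon and thalamus markers summed to 392.1 to 469.3 in VPA, 642.9 to 1176 in VPM and 747.2 to 794.7 in MC, and red cell markers to 195.1 to 229.3 in VPA, 338.8 to 470.1 in VPM and 387.0 to 510.4 in MC. These were the 6 of 15 lists in which VPA overlapped neither VPM nor MC, and their part in the result was not tested. In hippocampus St6galnac6 had 510.8 to 706.6 in VPA, 485.2 to 513.2 in VPM and 504.4 to 562.2 in MC (VPA minus VPM 0.25, interval 0.01 to 0.50, adjusted p = 0.319, limma).

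For the other 9 genes no difference between VPA and VPM passed at E18.5. Their intervals in forebrain reached from -0.51 for St6gal1 at the lowest to 0.39 for St8sia5 at the highest, and the interval of St6gal2 was -0.02 to 0.25. St6gal1 had 1975, 1796 and 1621 units in VPA forebrain, against 2051, 2425 and 2081 in VPM forebrain, with no overlap (-0.28 ± 0.10, adjusted p = 0.265, limma). VPM against MC passed for 0 of the 10 genes in forebrain (0% of genes passed, 626 genes at an unadjusted p under 0.05) and 0 in hippocampus (0.00866% of genes passed, 1196 at an unadjusted p under 0.05, with 1 of the 10 genes among them, St8sia1 at -0.19). St8sia2 alone of the 10 genes had no overlap between VPM and MC hippocampus, beside 15.6% of all genes. None of the 22 tested pathway genes passed in any E18.5 drug comparison.

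**Figure D2:**
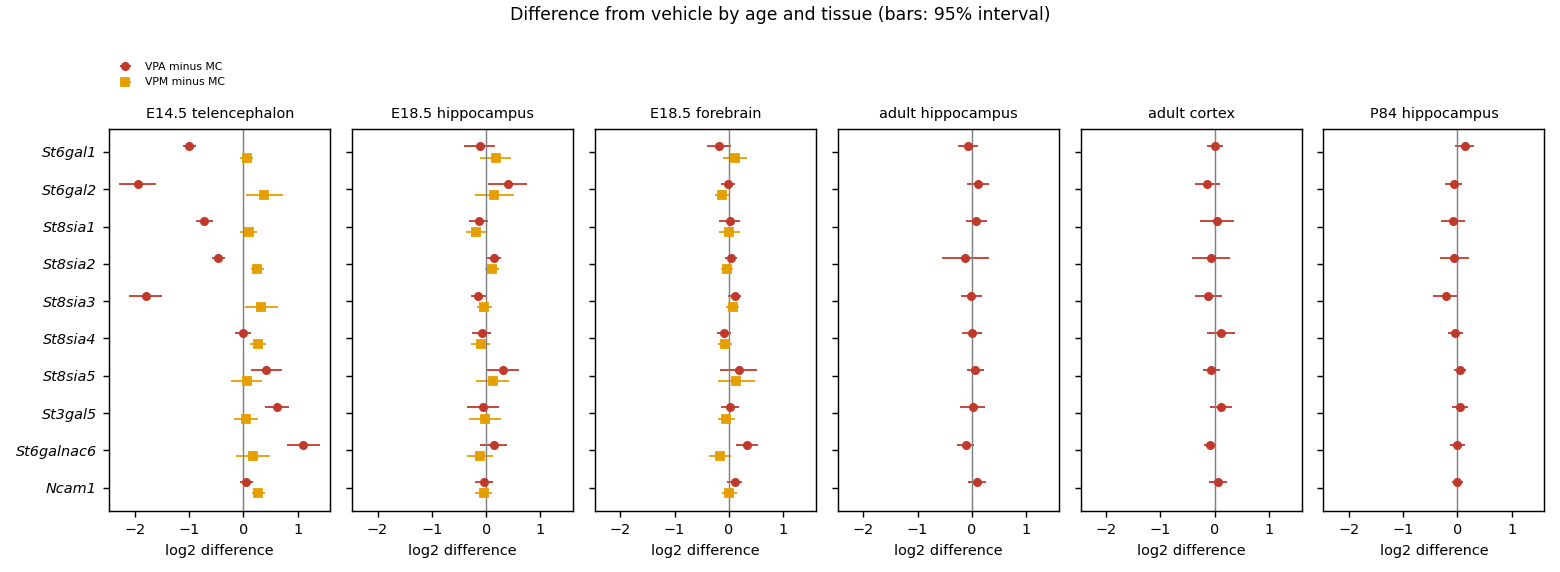
Log2 difference from MC (horizontal axis) of the 10 genes (rows) in 6 sets of arrays, for VPA (circles) and, where given, VPM (squares). Bars are 95% intervals from limma. At E14.5 St6gal2 (-1.94) and St8sia3 (-1.80) lie far left and St6galnac6 (1.11) right of 0, while at E18.5 and in adults no VPA minus MC value lies beyond 0.40 in size.

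In adult offspring VPA and MC did not differ past the threshold for any of the 10 genes. In hippocampus the smallest adjusted p was 0.562 (0% of 13479 genes passed, 1479 at an unadjusted p under 0.05), and St6galnac6 was the 1 gene without overlap, beside 16.9% of all genes. In cortex it was 0.546 (0.00734% of 13621 genes passed), with St6galnac6 again the 1 gene without overlap (15.7% of all genes), and in the P84 hippocampus 0.903 (0% of 13051 genes passed, 645 at an unadjusted p under 0.05). St6gal2 averaged 481.9 ± 23.8 units in VPA hippocampus and 446.3 ± 23.0 in MC hippocampus at 12 to 13 weeks (0.11, interval -0.09 to 0.31), and 424.4 ± 16.4 in VPA and 446.4 ± 19.3 in MC at P84 (n = 4 each, -0.07, interval -0.23 to 0.08). St8sia3 at P84 had the largest VPA minus MC difference in size over the 3 adult sets without wheels, with 1618, 1881, 1593 and 1367 units in VPA, against 1920, 1842, 2186 and 1580 in MC. Its groups overlapped (-0.22, interval -0.45 to 0.01), and at 12 to 13 weeks its hippocampal groups averaged 1422 ± 32.8 in VPA and 1437 ± 186 in MC. Over the 3 adult sets the widest interval of a VPA minus MC difference, that of St8sia2 in the hippocampus, extended 0.43 to each side. The VPA effect did not differ between the P84 and 12 to 13 week hippocampus sets for any of the 10 genes (0.0826% of genes passed).

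Running wheels gave no call either. The smallest adjusted p of the 10 genes was 0.531 for MC+RW against MC in hippocampus, 0.360 for VPA+RW against VPA in hippocampus, 0.436 for MC+RW against MC in cortex and 0.739 for VPA+RW against VPA in cortex (0%, 0%, 0.0147% and 0% of genes passed). The value of 0.360 was that of St6gal2, which had 370.2, 356.9 and 427.1 units in VPA+RW hippocampus, against 491.4, 499.4 and 454.9 in VPA hippocampus. The wheel arrays lay below the others (-0.33 ± 0.09, unadjusted p = 0.0037 by limma). St6gal2 also had 402.7, 379.1 and 364.3 units in MC+RW hippocampus, against 424.0, 470.0 and 444.8 in MC hippocampus, again without overlap (-0.22 ± 0.09, adjusted p = 0.531, limma). In the VPA+RW against VPA comparison 3 of the 10 genes had no overlap, beside 15.5% of all genes. The others were St8sia3, with 1529, 1488 and 1525 units in VPA+RW, against 1455, 1390 and 1421 in VPA (0.09 ± 0.09), and St8sia4, with 870.3, 833.3 and 884.5 in VPA+RW, against 953.9, 931.3 and 931.6 in VPA (-0.12 ± 0.09). Neither passed. In MC+RW against MC it was 2 of the 10 genes, beside 12.8% of all genes. The other was St6galnac6, which had 1801, 1714 and 1790 units in MC+RW hippocampus, against 1976, 1972 and 1999 in MC hippocampus (-0.17 ± 0.07, adjusted p = 0.552, limma). In cortex the St6gal2 groups overlapped in both comparisons (-0.02 and -0.19). St8sia5 was the 1 gene of the 10 without overlap between VPA+RW and VPA cortex, beside 13.2% of all genes. It averaged 1147 ± 44.8 units in VPA+RW and 1008 ± 5.57 in VPA (0.18), and did not pass. Between MC+RW and MC cortex all 10 genes overlapped, while 17.7% of all genes did not. VPA+RW against MC+RW passed for 0 of the 10 genes in hippocampus and cortex (0% and 0.0220% of genes passed). St8sia3 had 1496, 1893 and 1474 units in VPA+RW cortex, against 2053, 2236 and 1728 in MC+RW cortex, with overlap (-0.31 ± 0.12, interval -0.56 to -0.06, adjusted p = 0.432, limma). St3gal5 in hippocampus (0.16) and St6galnac6 in cortex (-0.07) had no overlap in this comparison, beside 9.46% and 15.2% of all genes. No interaction of VPA and running passed (0% in both tissues). None of the 24 pathway genes tested in hippocampus or the 25 in cortex passed in an adult drug or running comparison.

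**Figure D3:**
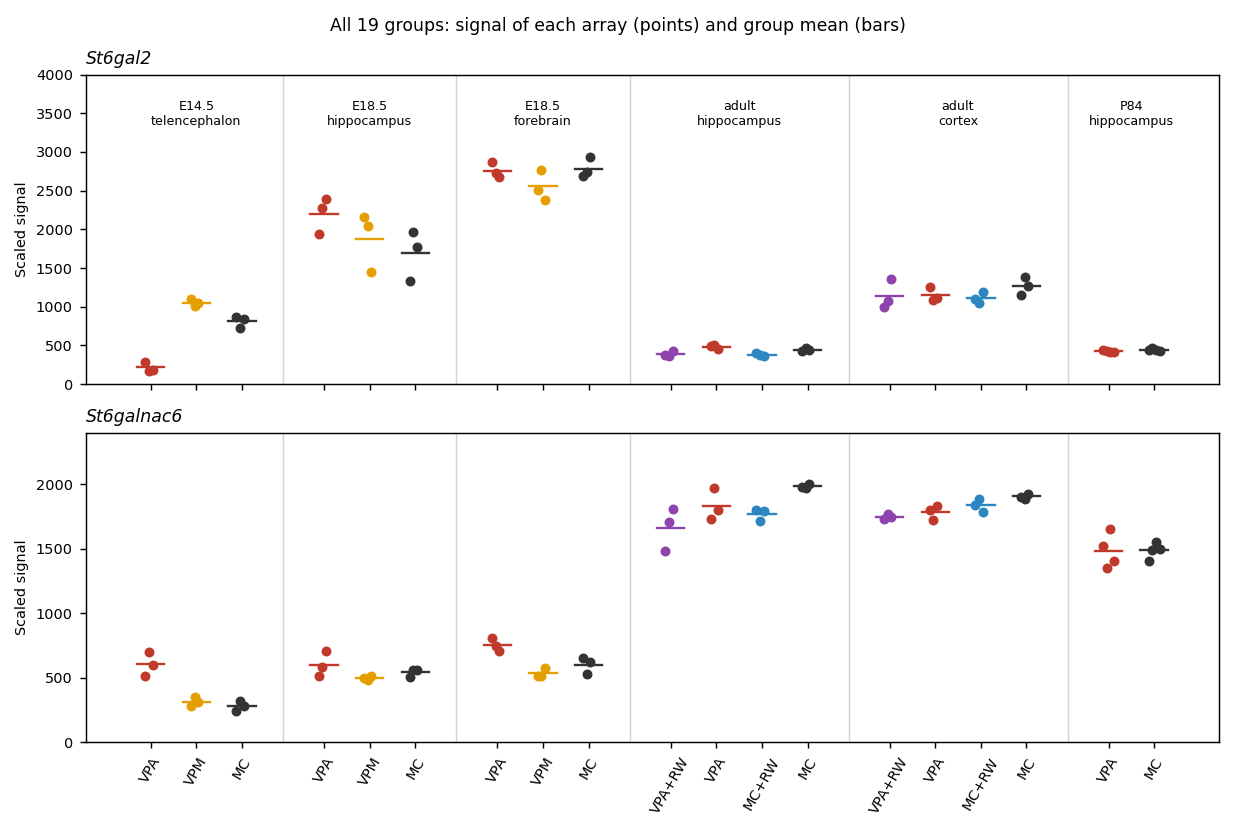
Scaled signal (vertical axes, linear from 0) of St6gal2 (top) and St6galnac6 (bottom) in each array of all 19 groups, ordered by age and tissue. Points are arrays (3 or, at P84, 4 per group) and bars are means. St6gal2 is lowest in E14.5 VPA (215.6) and highest in E18.5 forebrain MC (2784), and St6galnac6 is highest in adult hippocampus MC (1983).

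Differences between ages were tested in MC arrays in 1 limma fit of all 59 arrays, in which each age and tissue was its own set, so age, dissection and array run cannot be told apart. Sex also varied with age, was not a term of this fit, and its part was not tested. Xist was high in 1 of 3 MC arrays of E14.5 telencephalon, 2 of 3 of E18.5 forebrain and 0 of 3 of E18.5 hippocampus. All adults were male. The fit's E14.5 MC arrays also served in the contrast with which the genes were chosen. The p-values and counts of the 10 genes between E14.5 and E18.5 are therefore not independent of that choice and are given as a description. Between E14.5 telencephalon and E18.5 forebrain 6 of the 10 genes were higher at E18.5 and 1 was lower, where 54.2% of genes passed. St6gal2 had 2683, 2741 and 2929 units in E18.5 MC forebrain, against 870.7, 723.0 and 836.2 in E14.5 MC telencephalon. It rose 3.45-fold (1.78 ± 0.13, adjusted p = 1.53e-16, limma), with no overlap. St6galnac6 rose 2.15-fold (1.10 ± 0.10), St8sia4 by 0.73 ± 0.09 (its second probe set, at -0.24, did not pass) and Ncam1 by 0.70 ± 0.07. St8sia3 (0.34) and St8sia1 (0.31) rose less on the probe sets used in the tests. The second probe set of St8sia3 rose by 1.02 and passed, while the dim other ones of St8sia1 did not pass (-0.07 and -0.14). On the probe sets used, neither gene passed without E14.5 MC replicate 1 (0.23 and 0.26). St8sia1 also missed without E18.5 MC replicate 2 (0.30) or 3 (0.24). St6gal1 fell by 0.40, and this direction held with quantile normalization (-0.38) but not in the values as deposited (0.029). In the scaled values its second probe set was lower as well and passed (-1.06). St8sia2 had no overlap, with 6308 to 6881 units in forebrain, against 5156 to 5655 in telencephalon, beside 61.0% of all genes. It did not pass (0.28 ± 0.12, adjusted p = 0.0509, limma) but did under 5 other settings (adjusted p from 0.000691 to 0.0483, limma). St8sia5 (0.20) and St3gal5 (0.08) did not pass either, except in the values as deposited (0.63 and 0.52) and, for St8sia5, without E18.5 MC replicate 2 (0.30).

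From E18.5 to adult age the polysialic acid genes fell, with no age sampled between. St8sia2 had 141.5, 168.8 and 198.8 units in adult MC hippocampus, against 5740, 5811 and 5840 in E18.5 MC hippocampus. This was a 34.5-fold fall (-5.11 ± 0.12, adjusted p = 1.11e-35, limma), and the P84 arrays gave 29.1-fold (-4.86 ± 0.11). Its second probe set fell 9.48-fold in hippocampus (263.9 units in adult MC, against 2469 at E18.5), 9.56-fold at P84 and 10.5-fold in cortex. In cortex St8sia2 averaged 230.1 ± 28.4 units at 12 to 13 weeks, against 6613 ± 288 in E18.5 forebrain (28.9-fold, -4.85 ± 0.12). St8sia4 kept more of its embryonic level: it had 876.1, 1067 and 876.1 units in adult MC hippocampus, against 4374, 4494 and 5109 at E18.5. It fell 4.97-fold there (-2.31 ± 0.09), 5.70-fold at P84 and 6.43-fold in cortex, while its second probe set fell 1.76-fold, 1.34-fold and 2.06-fold. Ncam1 averaged 2947 ± 315 units in adult MC hippocampus and 10064 ± 527 in E18.5 MC hippocampus (3.42-fold lower, -1.78 ± 0.07), and fell 3.69-fold at P84 and 4.25-fold in cortex. For none of the 3 genes did adult and E18.5 arrays overlap, as for 79.4% to 81.4% of all genes.

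The enzymes of the other roles split. St6gal1 fell 3.45-fold in hippocampus (-1.79 ± 0.10), 3.96-fold at P84 and 2.93-fold in cortex, and its second probe set 1.54-fold, 1.65-fold and 1.75-fold. St6gal2 fell 3.74-fold in hippocampus (-1.90 ± 0.13), by the same 3.73-fold at P84, and 2.20-fold in cortex. St8sia1 fell 2.61-fold, 2.55-fold and 2.30-fold in the same 3 comparisons. St8sia5 rose instead, with 1025, 969.5 and 999.0 units in adult MC hippocampus, against 161.8, 194.9 and 199.1 at E18.5 (5.41-fold, 2.44 ± 0.10), and rose 5.38-fold at P84 and 6.04-fold in cortex. St6galnac6 rose 3.67-fold in hippocampus (1.87 ± 0.10), 2.75-fold at P84 and 3.19-fold in cortex. St3gal5 rose 1.71-fold in hippocampus, 1.48-fold at P84 and 2.93-fold in cortex. All of these passed in limma with no overlap of arrays; in all 9 of the 10 genes passed in the adult hippocampus, 10 at P84 and 10 in cortex, where 81.4%, 82.7% and 80.9% of genes passed. The exception was St8sia3 in hippocampus at 12 to 13 weeks (0.14, interval -0.10 to 0.37, but 0.47 and past the threshold in the values as deposited), which rose at P84 (0.52) and in cortex (0.58). The median difference of all genes was 0.15 to 0.17 in these 3 comparisons and -0.01 with quantile normalization, and the directions named held under both and in the values as deposited.

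**Figure D4:**
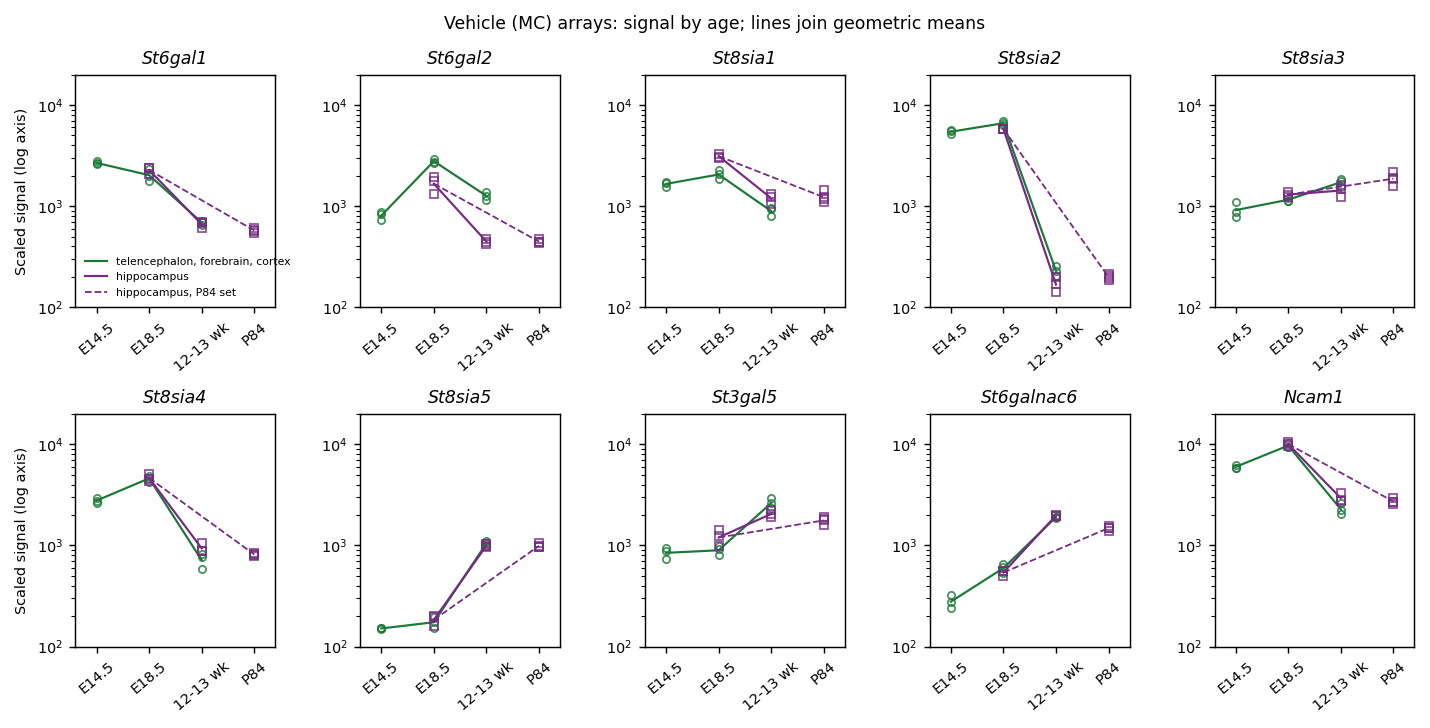
Scaled signal (vertical axis, log scale) of the 10 genes in the MC arrays by age, for telencephalon, forebrain and cortex (circles) and for hippocampus (squares); P84 is a separate set of nearly the age of the 12 to 13 week set and is joined to E18.5 by a dashed line. Points are arrays and lines join geometric means. St8sia2 drops to 141.5 to 258.9 units in the 12 to 13 week MC arrays, against 5740 to 6881 in the E18.5 MC arrays, while St8sia5 rises.

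Cell-type markers moved over the same ages: 14 of 15 lists had sums without overlap between adult and E18.5 MC hippocampus, and 13 of 15 between adult cortex and E18.5 forebrain. All 7 newborn neuron markers were lower in adult MC hippocampus than at E18.5, with sums of 19139 to 21457 against 80760 to 83157. Mature neuron markers summed to 55202 to 56380 in adult MC hippocampus, against 19754 to 24572 at E18.5, with 6 of 6 higher. Oligodendrocyte markers summed to 25797 to 29387 in adult MC hippocampus, against 4375 to 5846 at E18.5, with 5 of 7 higher and Mog under the floor on all E18.5 arrays. In cortex against E18.5 forebrain the same 7 newborn neuron markers were lower and 5 of 7 oligodendrocyte markers higher. Radial glia markers summed to 11848 to 12229 in adult MC hippocampus, against 38853 to 41986 at E18.5, and intermediate progenitor markers to 2667 to 2779 in adults, against 7493 to 8368. Astrocyte markers summed to 27892 to 29402 in adult MC hippocampus, against 12695 to 13102 at E18.5, and microglia markers to 7815 to 8424 in adults, against 2672 to 3054. Their part in the age differences was not tested.

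Of the 7 genes with more than 1 probe set, 6 had the same sign on all of them between adult and E18.5 MC hippocampus, with other sizes. Of the 7 probe sets of Ncam1 3 fell, 3 dim ones did not pass and 1 was not tested. Its brightest probe set, used in the tests, fell by 1.78, the next brightest fell by 1.77 and the one after fell by 0.75 ± 0.12, while the next, a dim one, did not pass (0.45 ± 0.25). In cortex against E18.5 forebrain this dim one rose by 1.04 ± 0.25 (149.2 units in cortex, against 75.5 in forebrain). A dimmer one rose there by 1.34 (83.7 units in cortex, against 31.8 in forebrain, a mean under the floor). It also rose by 0.89 between E18.5 and P84 MC hippocampus. The 3 brighter ones fell in cortex by 2.09, 2.13 and 0.91. St8sia3 did not pass on the probe set used in hippocampus at 12 to 13 weeks (0.14), but its other probe set rose by 0.92 ± 0.07.

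**Figure D5:**
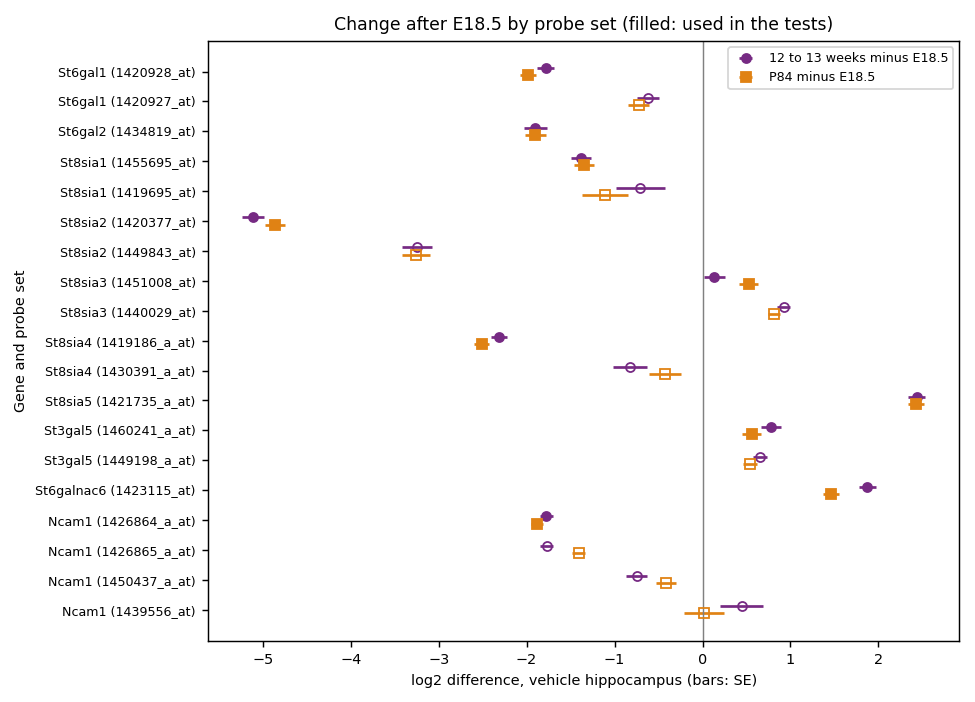
Log2 difference (horizontal axis) between adult and E18.5 MC hippocampus for each probe set of the 10 genes with a group mean of at least 100 in the adult set or at E18.5, at 12 to 13 weeks (circles) and P84 (squares). Bars are SE, and filled marks are the probe sets used in the tests. The probe sets of Ncam1 spread from -1.78 to 0.45 at 12 to 13 weeks, and those of St8sia2 lie at -5.11 and -3.25.

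St6gal2 had the largest difference between regions of the MC brain. At E18.5 it had 1333, 1962 and 1769 units in hippocampus, against 2683, 2741 and 2929 in forebrain (-0.74 ± 0.13, adjusted p = 1.62e-05, limma). In adults it had 424.0, 470.0 and 444.8 units in hippocampus, against 1148, 1381 and 1268 in cortex. Hippocampus lay below with no overlap at both ages, and in adults by 2.83-fold (-1.50 ± 0.13, adjusted p = 2.81e-13, limma). Arrays of the 2 regions did not overlap for 5 of the 10 genes at E18.5 and 7 in adults, beside 37.8% and 28.9% of all genes. At E18.5 St8sia1 (0.60 ± 0.12) and St3gal5 (0.42 ± 0.11) were higher in hippocampus, so 3 of the 10 genes passed, where 22.7% of genes did; St3gal5 missed without hippocampus MC replicate 3 (0.30) or forebrain MC replicate 1 (0.34). In adults Ncam1 (0.36 ± 0.07), St8sia4 (0.39 ± 0.09) and St8sia1 (0.42 ± 0.12) were higher in hippocampus, and St8sia2 (-0.45 ± 0.12) and St3gal5 (-0.36 ± 0.11) lower, so 6 of the 10 passed, where 8.81% of genes were higher and 9.73% lower. In the values as deposited only St6gal2 passed at either age, and in a fit of the compared groups alone St8sia2 and St8sia4 missed in adults (adjusted p = 0.177 and 0.0938, limma). St3gal5 was thus above forebrain in E18.5 hippocampus and below cortex in adult hippocampus, and its second probe set had the same signs (0.51 and -0.38). The second probe set of St8sia2 did not pass between adult regions and had the other sign (0.24 ± 0.17). That of St8sia4 did not pass there either and also had the other sign (-0.13). For Ncam1 the second brightest probe set was higher in adult hippocampus and passed (0.39), while the next brightest (0.05) and the dim ones did not pass. The dim other probe sets of St8sia1 had the same sign as the one used but did not pass (0.24 and 0.58). Marker sums differed between the same regions, without overlap for 10 of 15 lists at E18.5 and 9 of 15 in adults. Striatal projection neuron markers summed to 622.7 to 935.3 in hippocampus, against 3386 to 4040 in forebrain at E18.5, and to 1646 to 1927 in hippocampus, against 8013 to 8545 in cortex in adults. Interneuron markers summed to 9813 to 11561 in hippocampus, against 19541 to 22411 in forebrain at E18.5, and to 19089 to 20344 in hippocampus, against 21383 to 23392 in cortex in adults. Their part in the region differences was not tested. Nor was that of sex at E18.5, where 2 forebrain MC arrays but no hippocampus MC array had high Xist. Calls were lost for St8sia2 without hippocampus MC replicate 1 (-0.32) or cortex MC replicate 3 (-0.36), for St8sia1 without hippocampus replicate 1 (0.36) or cortex replicate 1 (0.33), for St8sia4 without cortex replicate 3 (0.25), and for St3gal5 without hippocampus replicates 2 (-0.35) or 3 (-0.31) or cortex replicate 1 (-0.27).

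The pathway list was compared between ages as well, and its counts are given beside the share of all genes that passed. Between E14.5 and E18.5 MC tissue 12 of 25 tested were higher at E18.5 and 1 was lower, where 54.2% of all genes passed. The list was led by B4galt6 (1.37 ± 0.06), B4galnt1, the synthase of the complex ganglioside backbone (1.28 ± 0.07), St6galnac5 (1.95 ± 0.11) and the adhesion molecule Cadm1 (0.76 ± 0.07). In adult cortex against E18.5 forebrain 10 rose and 10 fell, with a median of 0.06 beside 0.17 for all genes, of which 80.9% passed. Nans, which makes sialic acid, fell by 2.07 ± 0.08 there, Nrp2, which can carry polysialic acid, fell by 2.86 ± 0.16, and Mag rose by 4.87 ± 0.25 and St3gal6 by 1.73 ± 0.15. In adult hippocampus 11 rose and 7 fell, and at P84 12 rose and 10 fell, where 81.4% and 82.7% of all genes passed. Both were led by Nans (-2.06 and -2.47), Mag (4.90 and 5.07), Nrp2 (-2.81 and -2.58) and St8sia6 (2.99 and 3.15). St8sia6 averaged 30.7 units in E18.5 MC hippocampus, under the floor, so its values depend on the floor. Between regions 3 of 25 were higher in hippocampus and 4 lower at E18.5, where 22.7% of all genes passed. In adults 5 were higher and 2 lower, beside 8.81% of all genes higher and 9.73% lower. St6galnac5, a ganglioside sialyltransferase, was higher in hippocampus at E18.5 (0.93 ± 0.11) and in adults (1.74 ± 0.11). The others named by the same rule were B4galnt1 (-0.40), Nrp2 (0.85) and St3gal2 (-0.35) at E18.5, and Neu2 (-2.80, under the floor in hippocampus), Nrp2 (0.90) and St8sia6 (0.74) in adults.

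Over all 19 groups the means of St8sia2 spanned 43.8-fold, with E18.5 forebrain VPA highest (6771) and adult hippocampus VPA lowest (155.2). St6gal2 spanned 13.2-fold, St8sia3 7.59-fold, St8sia5 7.57-fold, St6galnac6 7.13-fold, St8sia4 6.73-fold, St6gal1 4.87-fold, Ncam1 4.58-fold, St8sia1 3.69-fold and St3gal5 3.46-fold. The lowest group was E14.5 VPA for St6gal2 (215.6) and St8sia3 (263.3), and E14.5 levels chose the genes. The spans, orders and gaps are therefore a description and no support. Ordered by mean, most neighbouring groups overlapped: of 18 neighbouring pairs per gene between 1 and 4 did not. For St6gal2 the order ran from the E18.5 forebrain groups (2554 to 2784) over E18.5 hippocampus (1688 to 2200), adult cortex (1112 to 1266), E14.5 VPM (1054) and E14.5 MC (810.0) to adult hippocampus at both ages (382.0 to 481.9), with E14.5 VPA (215.6) last. Its neighbours parted without overlap after E14.5 VPM, after E14.5 MC and before E14.5 VPA. For St8sia3 the only such gap lay between E14.5 VPA and the other 18 groups, and for St8sia5 the only one lay between the 10 groups of 12 to 13 weeks and P84 and the 9 embryonic groups. For St8sia4 and Ncam1 the 6 E18.5 groups came first, then E14.5 VPM apart, then the other E14.5 groups.

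The 10 genes fell into courses across the 19 group means of log2 signal, given here as a description with no test, since ages dominate the points and some groups share a dissection. The points also include the E14.5 groups, whose levels chose the genes. St8sia4 and Ncam1 ran together (r = 0.996), St8sia2 correlated with both at 0.981 and 0.965, and St8sia5 ran opposite to St8sia2 (r = -0.991). St6gal2 and St8sia3 followed none of the others closely (largest r in size 0.604 and 0.565). The course of each was set against 8978 genes with a group mean of at least 200 and a log2 span of at least 1. Genes among them with clone or predicted-gene symbols were passed over in naming. Of the rest, those most like St8sia2 were Dcx, a microtubule protein of migrating neurons (r = 0.998), Pafah1b3 (0.997) and Afap1 (0.997). Those most like St8sia4 were Aldh1l2, Mtss1 and Ncam1 (0.996 to 0.997), and those most like Ncam1 were St8sia4, Shtn1 and Hnrnpa1 (0.990 to 0.996). For St8sia5 they were Car7, Mertk and the myelin protein gene Mal (each 0.997), for St6galnac6 Tspan17, Hcn2 and Klf9 (0.990 to 0.992), and for St6gal1 Cnot6, Klhdc2 and Zfp462 (0.992 to 0.994). For St3gal5 they were Mat2b, Adk and Stx4a (0.976 to 0.985), for St8sia1 Lrrc8d, Igfbp3 and Bptf (0.967 to 0.977), for St8sia3 Chmp3, Tmem42 and Gpr26 (0.949 to 0.978), and for St6gal2 Kcnu1, Mb21d2 and Ppp1r26 (0.941 to 0.948).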

How the data were processed

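RNA was measured on Affymetrix mouse arrays, and the authors deposited a linear signal intensity per probe set; the submitters' processing notes name GCOS, while its scaling is not given in the sources used here. Each of 59 arrays was scaled to a 2% trimmed mean of 500, floored at 32 and put on the log2 scale. The platform annotation gave 34958 of 45101 probe sets a single symbol, several symbols to 932 and no symbol to 9211; each of 18194 genes kept the probe set with the highest mean log2 signal. A gene was tested with at least 100 units in 3 arrays (4 at P84). Comparisons used limma 3.58.1 (R 4.3.3, with the data.table package 1.17.8), 1 fit per age and tissue with an intensity trend, and 1 fit over 59 arrays between ages, regions and sets (28 comparisons), with Benjamini-Hochberg adjustment over all genes at 0.05 and 95% intervals; the fits were tested on simulated data. The genes and lists, and the 25 comparisons with tests of them, were chosen with earlier results of these data known. All 10 genes are named, with up to 4 pathway genes per comparison by smallest adjusted p, and 3 genes of most similar course (group mean of at least 200 and span of at least 1). Alternatives were other scalings, filters, probe sets, offsets and designs, and leaving out each array. The number of arrays, 3 or 4 per group, limits the precision. Figures were drawn with matplotlib 3.10.9 under Python 3.11.15, with pandas 2.3.3 and numpy 2.4.6.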

Additional observations from a re-analysis of the deposited data

Results flagged for a closer look

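In the P84 hippocampus VPA group of 4 arrays, St6gal1 had 1 array apart from the others: 549.4 units against 650.8, 651.6 and 673.2, a gap of 0.833 of the group's range on the log2 scale (0.819 in units). In the same group St8sia2 had 1 array apart, another one, at 158.6 units against 199.0, 204.4 and 207.5, a gap of 0.844 of the range on the log2 scale (0.826 in units). Of the 20 values checked (10 genes in the 2 groups of 4 arrays) these 2 lay beyond Dixon's 95% limit on the log2 scale and none did in units, and chance alone puts about 1 of 20 there.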

How the results depend on the processing

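The 67 values past the threshold were recomputed 1033 times under other settings: 978 kept direction and side of the threshold, 54 lost the threshold and 1 turned round, St6gal1 between E18.5 forebrain and E14.5 telencephalon in the values as deposited (0.029). In the values as deposited, calls numbered 0 for E14.5 VPM against MC (448 of all genes, against 1266), 0 for E18.5 forebrain VPA against VPM (13 of all genes, against 61), 1 for E18.5 hippocampus against forebrain (1850 against 3293) and 1 for adult hippocampus against cortex (1103 against 2693), while E18.5 forebrain against E14.5 telencephalon gained St8sia2 (0.71), St8sia5 (0.63) and St3gal5 (0.52); the cause was not tested. Counts at E14.5 describe the values that chose the genes and support nothing. E18.5 forebrain VPA against VPM also gave 0 with no filter (7 of all genes), no trend (10), every probe set (42 probe sets), only the arrays compared (19) and sex as a covariate (45), and 0 to 0 with each array left out (2 to 39 genes). E18.5 hippocampus against forebrain gave 5 probe sets with every probe set tested. Leaving out each array gave 1 to 3 for E14.5 VPM against MC (531 to 977 genes), and 36 to 172 genes against 243 for E18.5 forebrain VPA against MC. Over the other settings the count of all calls at E14.5 ran from 3978 to 10533 for VPA against MC and from 448 to 1934 for VPM against MC. These are genes, except in the setting that tested every probe set, where probe sets were counted. Replicate numbers were not used to pair samples. After removing group means, same-numbered arrays correlated at -0.17 to 0.20 at E14.5 and at -0.28 to 0.38 in E18.5 forebrain, and not every pair passed 0.1 in any set. Between tissues, arrays of the same treatment and number correlated at -0.05 to 0.17 at E18.5 and at -0.15 to 0.29 in adults. Such values cannot exclude a pairing, and the region comparisons treated the tissues as independent samples. With replicate as a block, the E14.5 calls were 8 for VPA against MC, 3 for VPM against MC and 9 for VPA against VPM (6008, 1215 and 6108 of all genes), St8sia5 dropping out of the last, and St8sia2 passed between E18.5 forebrain and E14.5 telencephalon (adjusted p = 0.0483, limma); the number of the 10 genes called was the same in the other comparisons. The number of arrays and signals near the floor limit what small differences can be seen.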
